A study of Mus musculus with 6 samples.

Results

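The genes described here are *Mdm4* and *Mdm2*, which encode the main inhibitors of p53, *Trp53*, which encodes p53 itself, and 7 genes that p53 is known to switch on, *Cdkn1a*, *Ccng1*, *Gtse1*, *Bax*, *Bbc3*, *Phlda3* and *Sesn2*. They are 10 of the 24421 genes in the deposited tables and were taken by name. All 10 passed the filter on low levels described below. *Mdm4* was chosen on its fall after diphtheria toxin (DT), measured in CPM in these same libraries, so its values are given as a description without a test. The question put to the other 9 genes was whether the fall of *Mdm4* went with a change in the genes that p53 drives.

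Both groups were male *Siglech* dtr/dtr mice on the C57BL/6 background, which carry the DT receptor at the microglial gene *Siglech* on both alleles, so the control mice carried the receptor as well. Plasmacytoid dendritic cells outside the brain also express *Siglech*. The mice were adult, and the study gives their age only as a range for all its adult mice. The DT group received 50 µg/kg of DT intraperitoneally and the PBS group received PBS, and hippocampi were taken 2 days later. Cells were depleted of CD11b+ microglia with magnetic beads, astrocytes were then captured with beads against the surface antigen ACSA-2, and total RNA was sequenced in 3 libraries per group, each from a pool of 2 mice. No mice without the receptor were analysed here, so an effect of DT that does not need the receptor cannot be told apart from the loss of microglia. 

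p53 is a transcription factor that is made all the time and destroyed almost as fast. Mdm2 is a ubiquitin ligase that marks p53 for destruction, and Mdm4 (also called MdmX) is its relative, which has little ligase activity of its own, binds the activation domain of p53 and blocks it there, and pairs with Mdm2. When either inhibitor is lost or p53 is stabilized by stress, p53 binds paired copies of a short DNA motif near its targets and raises them, among them *Mdm2*, which closes a negative feedback loop. In most adult tissues Mdm4 protein is kept low, in large part by skipping of an exon, and the mRNA of its full-length form is more abundant in dividing and fetal cells.

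The p53 motif was sought in the RefSeq promoters of the 10 genes (GRCm38.p6, 250 bases before to 50 after each start, 15 windows), because it is the most direct link between p53 and the genes measured here. A site was a pair of the 10-base p53 consensus decamers on either strand, with 0 or 1 base between them and at most 3 mismatches in all, none of them at the C or G of the 4-base cores. Such a site was present in 2.82% of 32851 promoter windows, and in 0.11% with at most 1 mismatch. The sites are shown with the 4-base cores in capitals, since those are the best conserved letters of the motif. The rule for a site was set after the sequences had been seen.
Cdkn1a, 1 mismatch, chr17:29090928-29090947, plus strand, starting 51 bases before the start: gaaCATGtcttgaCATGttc
Ccng1, 1 mismatch, chr11:40755462-40755481, minus strand, starting 195 bases before the start: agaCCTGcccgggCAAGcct
Gtse1, 1 mismatch, chr15:85859945-85859964, plus strand, across the start: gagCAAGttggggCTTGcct
Gtse1, 1 mismatch, chr15:85859955-85859975, plus strand, after the start: gggCTTGcctctgaCTTGcct
Bax, 2 mismatches, chr7:45467079-45467099, minus strand, starting 201 bases before the start: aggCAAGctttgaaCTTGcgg
Trp53, 3 mismatches, chr11:69580284-69580303, plus strand, starting 75 bases before the start: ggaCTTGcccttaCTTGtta
Bbc3, 3 mismatches, chr7:16309486-16309505, plus strand, starting 97 bases before the start: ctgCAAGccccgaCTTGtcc
The sites of *Gtse1* overlap and share a decamer. The site of *Cdkn1a* lies at the upstream of its 2 annotated starts. That of *Bbc3* lies at the most upstream of its RefSeq starts, but inside the gene as GENCODE places it, from 16308393 to 16318205. The bases just after that start were not found in a GENCODE transcript of *Bbc3*. No such site was found in these windows of *Mdm4*, *Mdm2*, *Phlda3* or *Sesn2*. Sequence outside the windows, such as the introns of *Mdm2*, was not searched, so these genes may hold sites elsewhere. A match is a description of the letters and does not show that p53 was bound there.

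Levels are given in CPM, reads of a gene relative to the library size as scaled by the authors, or, where genes are set beside each other, in TPM, which are also relative to the length of the transcripts. Differences are log2 fold changes of DT against PBS on the scale of log2(CPM + 0.1). The 0.1 added shrinks the change of genes with few reads. Where the libraries of such a gene differ much, the fitted value can still exceed the change of its mean CPM. The log2 fold changes come from limma, fitted to the 15137 genes with a mean of at least 0.5 CPM over the 6 libraries. The test was two-sided, and a gene was called at a Benjamini-Hochberg adjusted p under 0.05 over all these genes. In that fit 0.555% of genes were called higher after DT and 0.159% lower, 0.713% in all, and the groups did not overlap at 8.75% of genes in the higher and 7.57% in the lower direction, 16.3% in all. Unadjusted p-values under 0.05 were found for 5.91% of genes in the higher and 4.51% in the lower direction, 10.4% in all. With 3 libraries a group, an exact permutation test of a single gene cannot give a p under 0.1. The p-values measure the spread between pools of mice.

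The reads recovered from the CPM of all listed genes came to between 21704891 and 32933975 per library. The 10 astrocyte markers, among them *Aqp4* and *Slc1a2*, were all present and summed to between 56292 and 60802 CPM after PBS and between 60080 and 67037 CPM after DT. Of 15 microglia markers, all were fitted lower after DT and 7 were called. Their sum ran from 273 to 312 CPM after PBS and from 158 to 183 CPM after DT, and *Siglech*, at 0.967 to 2.14 CPM after PBS, had no read in any DT library. The sum of 6 border macrophage markers ran from 18.6 to 28.1 CPM after PBS and from 65.2 to 76.2 CPM after DT, and that of 6 endothelial markers from 630 to 980 CPM and from 508 to 606 CPM. The sums also did not overlap for 4 ependymal markers (159 to 197 and 208 to 348 CPM) and 5 markers of oligodendrocyte precursors (361 to 468 and 311 to 352 CPM), and overlapped for markers of choroid plexus (45.7 to 848 and 529 to 1483 CPM), oligodendrocytes and neurons. The parts that these cells had in the values below were not tested. In bulk RNA, fewer cells of a type and less RNA per cell cannot be told apart.

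*Mdm4* (ENSMUSG00000054387, minus strand of chromosome 1 from 132959484 to 133030561 in mm10, 14 annotated transcripts) was read 2244, 3570 and 2360 times in the PBS libraries and 701, 888 and 584 times in the DT libraries. Its level was 103, 108 and 108 CPM after PBS and 30.6, 28.9 and 25.5 CPM after DT. The PBS libraries lay within 5.08 CPM of each other, and every DT library stood far below them. The mean was 106 ± 2.74 CPM (SD, n = 3) after PBS and dropped after DT to 28.3 ± 2.61 CPM (SD, n = 3), 0.266 of the control level, a log2 fold change of -1.91. In TPM the fall was from 43.3 ± 1.83 to 11.6 ± 0.983 (SD, n = 3). The spread within the groups was 0.0987 on the log2 scale, beside a median of 0.0943 for genes of like level. The log2 fold change stayed between -1.97 and -1.84 under 15 alternative settings, with each library left out among them.

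**Figure D1:**
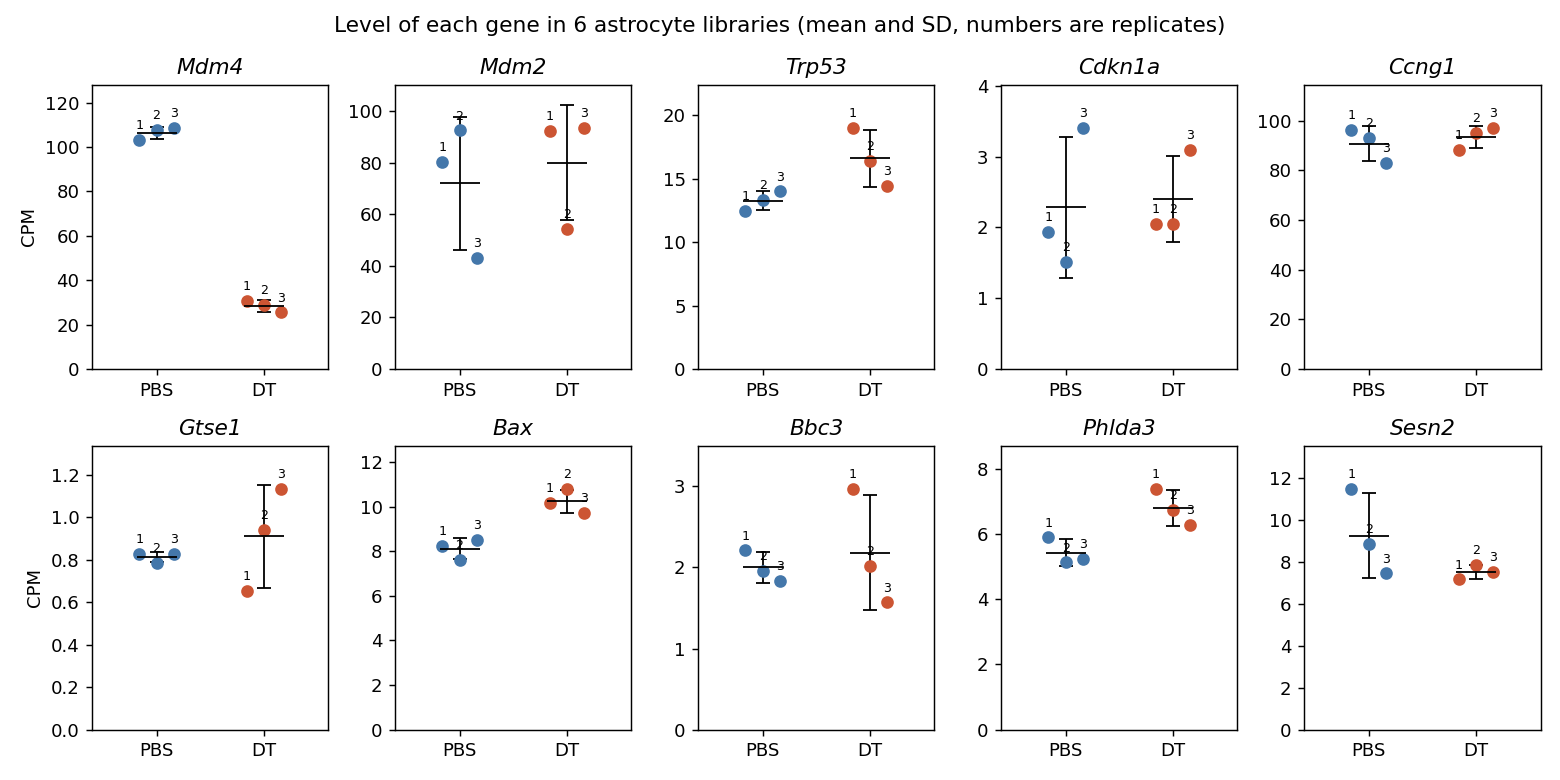
Level of the 10 genes in each library, in CPM on a linear axis that starts at 0 for each gene, with blue points for PBS and red points for DT, numbered by replicate, and bars for the mean and SD (n = 3). *Mdm4* fell from 106 to 28.3 CPM with no overlap, *Mdm2* had a low library in each group, and *Trp53*, *Bax* and *Phlda3* lay a little higher in every DT library than in any PBS library.

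The deposited tables hold 1 value per gene, so which transcripts of *Mdm4* fell could not be read from them. The ratio of TPM to CPM moves with the length of the transcripts that are read. It was divided in each library by its median over genes with at least 50 CPM in every library. The range of this scaled ratio over the 6 libraries was 0.573% of its mean for *Mdm4*, beside a median of 0.222% for those genes. It is a ratio within the authors' quantification and gives no separate value for the full-length form. Of 4 genes whose products act on the splicing of *Mdm4* or its machinery, none was called. The splicing factor *Srsf3* was fitted at -0.10 on the log2 scale (adjusted p = 0.651 from limma), the arginine methyltransferase *Prmt5* at 0.03, and its partners *Wdr77* and *Clns1a* at 0.05 and -0.13.

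Of the genes called lower after DT, 4 were at a higher level than *Mdm4* after PBS, *Slco1c1*, *Etv5*, *Reln* and *Apln*, with log2 fold changes from -0.61 to -0.39. The genes called lower with a change larger than that of *Mdm4* were all at lower levels. Of the microglia markers, *Tmem119*, *Cx3cr1*, *Itgam* and *Ctss* were fitted lower than *Mdm4*, besides *Siglech*, and the most abundant of them, the protease *Ctss*, was at 33.9 CPM after PBS. The fall of *Mdm4*, at -78.1 CPM, stood beside a fall of -129 CPM for the 15 microglia markers together, of which *Sall1* alone held 79.2 CPM after PBS and 77.1 CPM after DT.

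**Figure D2:**
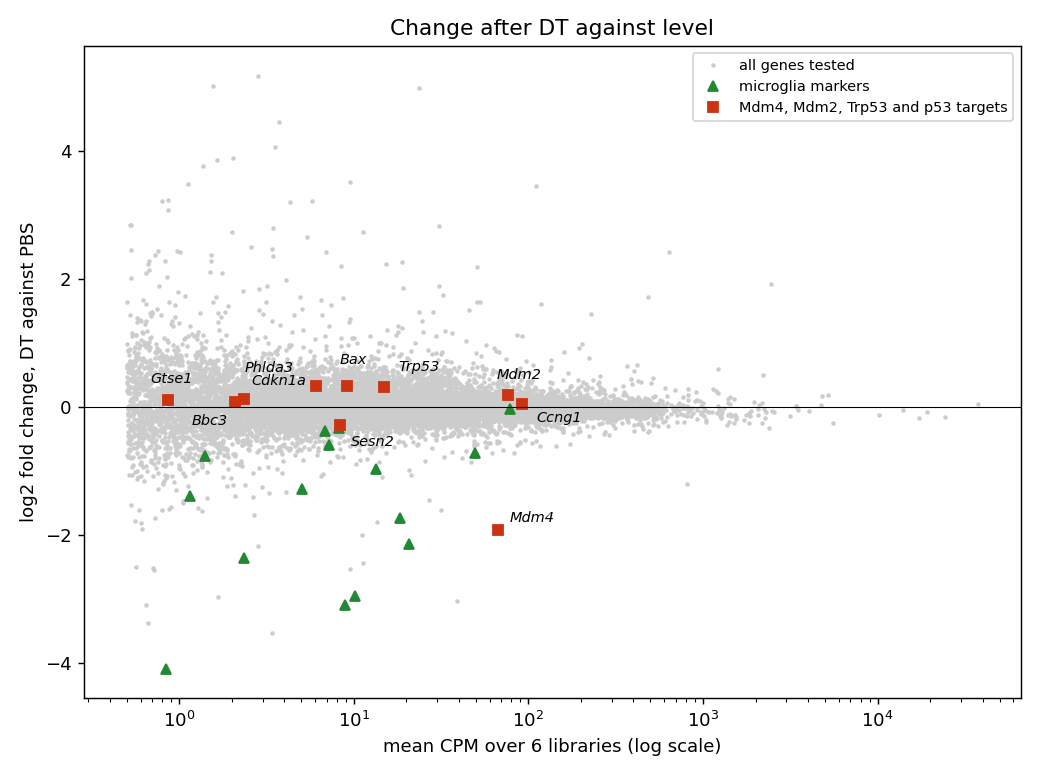
Log2 fold change of DT against PBS (vertical axis) against the mean CPM over 6 libraries (horizontal axis, log scale) for 15137 genes in grey, with the 10 genes as red squares and 15 microglia markers as green triangles. *Mdm4* lies at -1.91 at a level above that of the microglia markers with a larger fall, the other 9 genes lie between -0.28 and 0.33, and the lowest triangle is *Siglech*, which had no read after DT, so that its place depends on the 0.1 added.

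The genes whose profile over the 6 libraries was nearest to that of *Mdm4*, by the root mean square difference of centred log2 values, were *Csf1r* (difference 0.111, Pearson r = 0.997), *Ctss* (0.175, r = 0.993), *Gpr34* (0.198, r = 0.981), *Ikzf1* (0.295, r = 0.956) and *Tnfaip8l2* (0.319, r = 0.946). *Csf1r* encodes the receptor for CSF1 that microglia need to survive, *Gpr34* a receptor of microglia, *Ikzf1* a transcription factor of blood cells and *Tnfaip8l2* a regulator of immune cells. These correlations are over 6 libraries that fall into the 2 groups, so any gene with a fall of this size scores high. *Csf1r* went from 25.2, 28.8 and 31.1 CPM after PBS to 9.17, 8.48 and 7.68 CPM after DT. *Mdm4* was 3.75 times as abundant as *Csf1r* in CPM after PBS, 25.8 times as abundant as *Gpr34* and 85.2 times as abundant as *Tnfaip8l2*. How much of the *Mdm4* RNA came from microglia was not tested.

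The neighbours of *Mdm4* on chromosome 1 were read in the same libraries. Of the 5 annotated genes on each side, 9 were tested, 0 were called by limma and 1, *Golt1a*, was listed at 0 throughout. *Lrrn2*, the nearest gene before *Mdm4*, had a log2 fold change of 0.12. *Pik3c2b*, the nearest after it, had one of -0.17 and *Ppp1r15b*, the next, of 0.01. The values ranged from -0.61 for *Gm10538* to 0.66 for *Nfasc*, a gene of axon initial segments and nodes, which went from 95.7, 88.4 and 63.9 CPM to 123, 138 and 126 CPM (adjusted p = 0.105 from limma). None of the 9 was fitted as low as *Mdm4*.

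**Figure D3:**
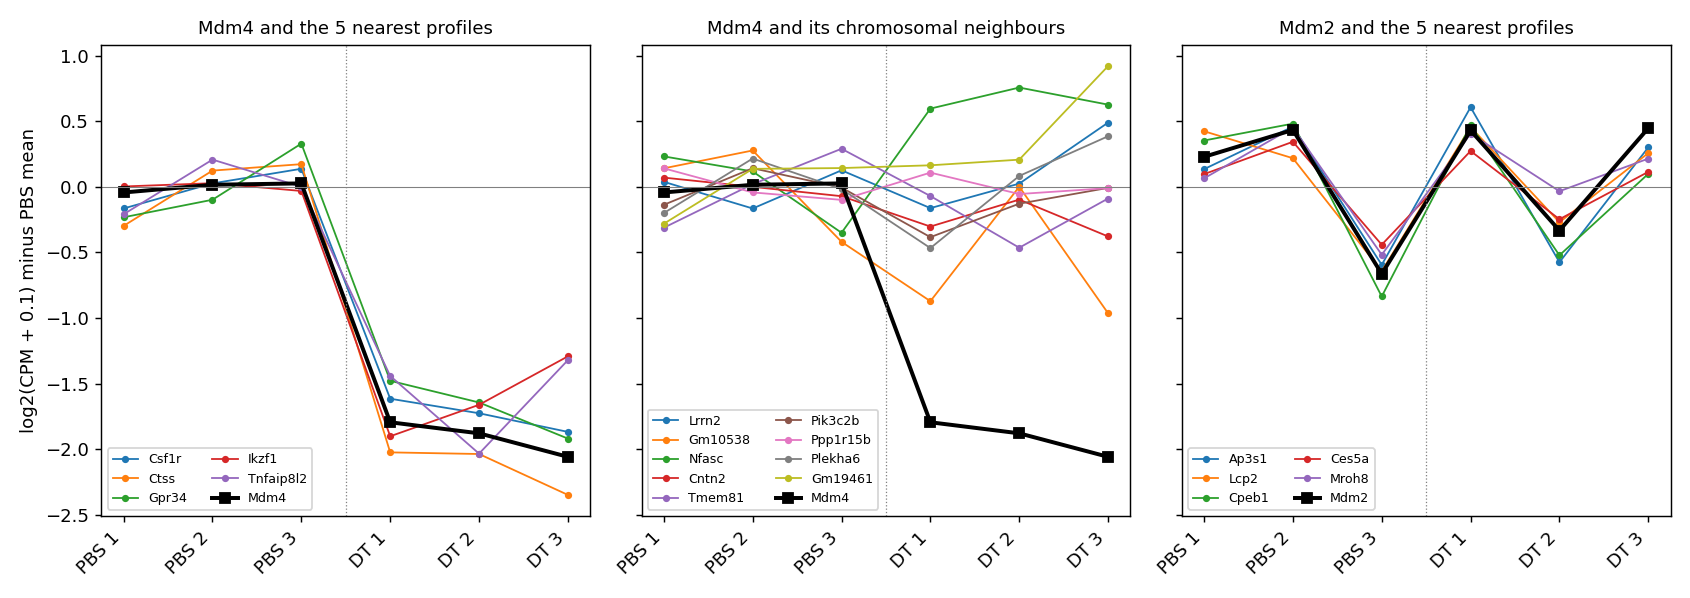
Change in each library from the PBS mean, as log2(CPM + 0.1), in the order PBS 1 to 3 and DT 1 to 3, for *Mdm4* with the 5 genes of nearest profile (left), *Mdm4* with 9 chromosomal neighbours (middle) and *Mdm2* with the 5 genes of nearest profile (right). *Mdm4* falls with *Csf1r* and *Ctss* and away from its neighbours, and *Mdm2* is low in PBS replicate 3 and DT replicate 2.

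*Mdm2* (ENSMUSG00000020184, minus strand of chromosome 10 from 117688875 to 117710758) is the target through which p53 limits itself. It was at 80.2, 92.4 and 43.1 CPM after PBS and at 92.2, 54.3 and 93.3 CPM after DT, from 939 to 3066 reads. PBS replicate 3 and DT replicate 2 were low and the other 4 libraries lay together, so the groups overlapped. DT and PBS differed by 0.18 on the log2 scale (SE 0.30, 95% interval -0.49 to 0.86, adjusted p = 0.876 from limma). Without PBS replicate 3 it was -0.15, and without DT replicate 2 it was 0.44. The spread within the groups was 0.519 on the log2 scale, larger than in 98.9% of 4090 genes of like level, whose median was 0.0910, while counting error alone gives 0.0349.

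Set beside each other in TPM, *Mdm2* was 1.82, 2.02 and 0.935 times as abundant as *Mdm4* in the PBS libraries. After DT it was 7.09, 4.43 and 8.67 times as abundant. This ratio holds the fall of *Mdm4* and, within each group, the spread of *Mdm2*.

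*Trp53* (ENSMUSG00000059552, plus strand of chromosome 11 from 69580359 to 69591873), whose product is controlled mostly as protein, was at 12.5, 13.3 and 14.0 CPM after PBS and at 19.0, 16.4 and 14.4 CPM after DT. The groups did not overlap, though DT replicate 3 lay close to the highest PBS library. The log2 fold change was 0.31 (SE 0.13, 95% interval 0.03 to 0.60), which did not pass the threshold (adjusted p = 0.443 from limma).

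Among the targets that slow the cell cycle, *Cdkn1a* encodes p21, the inhibitor of cyclin-dependent kinases that is the classical readout of p53. *Cdkn1a* (ENSMUSG00000023067, chromosome 17 from 29090976 to 29100727) was low, at 1.93, 1.51 and 3.40 CPM after PBS and 2.05, 2.05 and 3.10 CPM after DT, from 42 to 74 reads. Replicate 3 was the highest library of each group, and the groups overlapped. The groups differed by 0.12 on the log2 scale (SE 0.33, adjusted p = 0.935 from limma), and its 95% interval, from -0.63 to 0.88, runs from 0.644 to 1.84 of the control level. It was -0.12 without PBS replicate 2 and -0.07 without DT replicate 3, so its direction was not determined.

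*Ccng1* (ENSMUSG00000020326, minus strand of chromosome 11 from 40748552 to 40755311), which encodes cyclin G1, had the highest mean of the 10 genes per length after PBS, with libraries that overlapped those of *Mdm2*. It was at 96.3, 93.0 and 82.9 CPM after PBS and at 88.3, 95.0 and 97.0 CPM after DT. The groups overlapped, with a log2 fold change of 0.04 (SE 0.08, adjusted p = 0.882 from limma). The 95% interval, from -0.13 to 0.22, was the narrowest of the 9 genes tested and runs from 0.915 to 1.16 of the control level.

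*Gtse1* (ENSMUSG00000022385, chromosome 15 from 85859745 to 85876573), whose product is made in S and G2 phase and moves p53 out of the nucleus, was read only 15 to 29 times per library. It was at 0.829, 0.784 and 0.827 CPM after PBS and at 0.655, 0.942 and 1.13 CPM after DT. The DT libraries lay on both sides of the PBS libraries, with a log2 fold change of 0.12 (95% interval -0.64 to 0.87, adjusted p = 0.939 from limma). At this depth only a large change of *Gtse1* was detectable.

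Among the targets that act in cell death, *Bax* (ENSMUSG00000003873, minus strand of chromosome 7 from 45461697 to 45466898) encodes the protein that opens the outer mitochondrial membrane. It was at 8.24, 7.60 and 8.50 CPM after PBS and at 10.2, 10.8 and 9.73 CPM after DT. The DT libraries all lay above the PBS libraries. The log2 fold change was 0.33 (SE 0.12, 95% interval 0.05 to 0.61) and did not pass the threshold (adjusted p = 0.401 from limma).

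*Phlda3* (ENSMUSG00000041801, chromosome 1 from 135766119 to 135769136), whose product holds back the survival kinase Akt, gave much the same picture. It was at 5.89, 5.13 and 5.24 CPM after PBS and at 7.38, 6.73 and 6.28 CPM after DT. The groups did not overlap, and the log2 fold change was 0.32 (SE 0.15, 95% interval -0.02 to 0.66, adjusted p = 0.508 from limma).

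*Bbc3* (ENSMUSG00000002083, chromosome 7 from 16308393 to 16318205) encodes Puma, which sets off Bax. It was at 2.21, 1.96 and 1.84 CPM after PBS and at 2.97, 2.02 and 1.57 CPM after DT, from 36 to 68 reads. DT replicate 1 was the highest and DT replicate 3 the lowest of all 6 libraries, and the log2 fold change was 0.08 (95% interval -0.56 to 0.71, adjusted p = 0.954 from limma). Without DT replicate 1 it was -0.16.

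*Sesn2* (ENSMUSG00000028893, minus strand of chromosome 4 from 132492032 to 132510501), which encodes a sestrin that restrains mTORC1 under stress, was the single gene of the 9 with a fitted value below 0. It was at 11.5, 8.83 and 7.44 CPM after PBS and at 7.16, 7.86 and 7.50 CPM after DT. The DT libraries lay close together around the lowest PBS library. The log2 fold change was -0.28 (SE 0.17, 95% interval -0.67 to 0.12, adjusted p = 0.637 from limma).

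Over the 9 genes other than *Mdm4*, 8 were fitted higher and 1 lower, and their median was 0.12 on the log2 scale, beside -0.01 for all genes tested, of which 48.7% were fitted higher. None of the 9 was called by limma, edgeR or DESeq2, where 0.713% of all genes were called by limma, 0.733% by edgeR and 2.15% by DESeq2. At an unadjusted p under 0.05 there were 2, *Bax* and *Trp53*, both higher, beside 10.4% of all genes in either direction. The 3 genes whose groups did not overlap, *Trp53*, *Bax* and *Phlda3*, had mean CPM 1.25 to 1.26 times as high after DT, beside 8.75% of all genes without overlap in that direction, and no setting brought any of them past the threshold. Their adjusted p over the 15 alternatives was at least 0.188 for *Bax*, 0.367 for *Trp53* and 0.404 for *Phlda3*.

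Per length, the order of the levels after PBS was *Ccng1* (76.2 TPM), *Mdm2* (68.8), *Mdm4* (43.3), *Bax* (27.3), *Trp53* (21.7), *Phlda3* (10.8), *Sesn2* (10.2), *Cdkn1a* (3.46), *Bbc3* (2.93) and *Gtse1* (0.845). The libraries of *Ccng1* and *Mdm2*, *Mdm2* and *Mdm4*, *Phlda3* and *Sesn2*, and *Cdkn1a* and *Bbc3* overlapped, so the order within these pairs was not determined. After DT *Mdm4*, at 11.6 TPM, stood below *Bax* (34.7 TPM), *Trp53* (27.3 TPM) and *Phlda3* (13.6 TPM), with no change in the order of the other genes.

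To see whether these genes stood for the pathway, 39 known p53 targets were listed, 8 of the 9 genes above among them. All were in the tables, *Cop1* under its older symbol *Rfwd2*, and 37 were tested, with *Pidd1* and *Gdf15* under the filter. Of the 37, 23 were fitted higher and 14 lower, with a median of 0.06, which was -0.02 without PBS replicate 2. None was called by limma or edgeR and 1 was called by DESeq2, which called 2.15% of all genes. Without the 8 genes described above, 16 of 29 tested targets were fitted higher and 13 lower, with a median of 0.04. At an unadjusted p under 0.05, 3 of the 37 were higher, *Bax* among them, and 2 lower, 13.5% of the 37 beside 10.4% of all genes. The groups did not overlap for 6 higher and 2 lower targets of the 37, beside 8.75% of all genes in the higher and 7.57% in the lower direction.

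**Figure D4:**
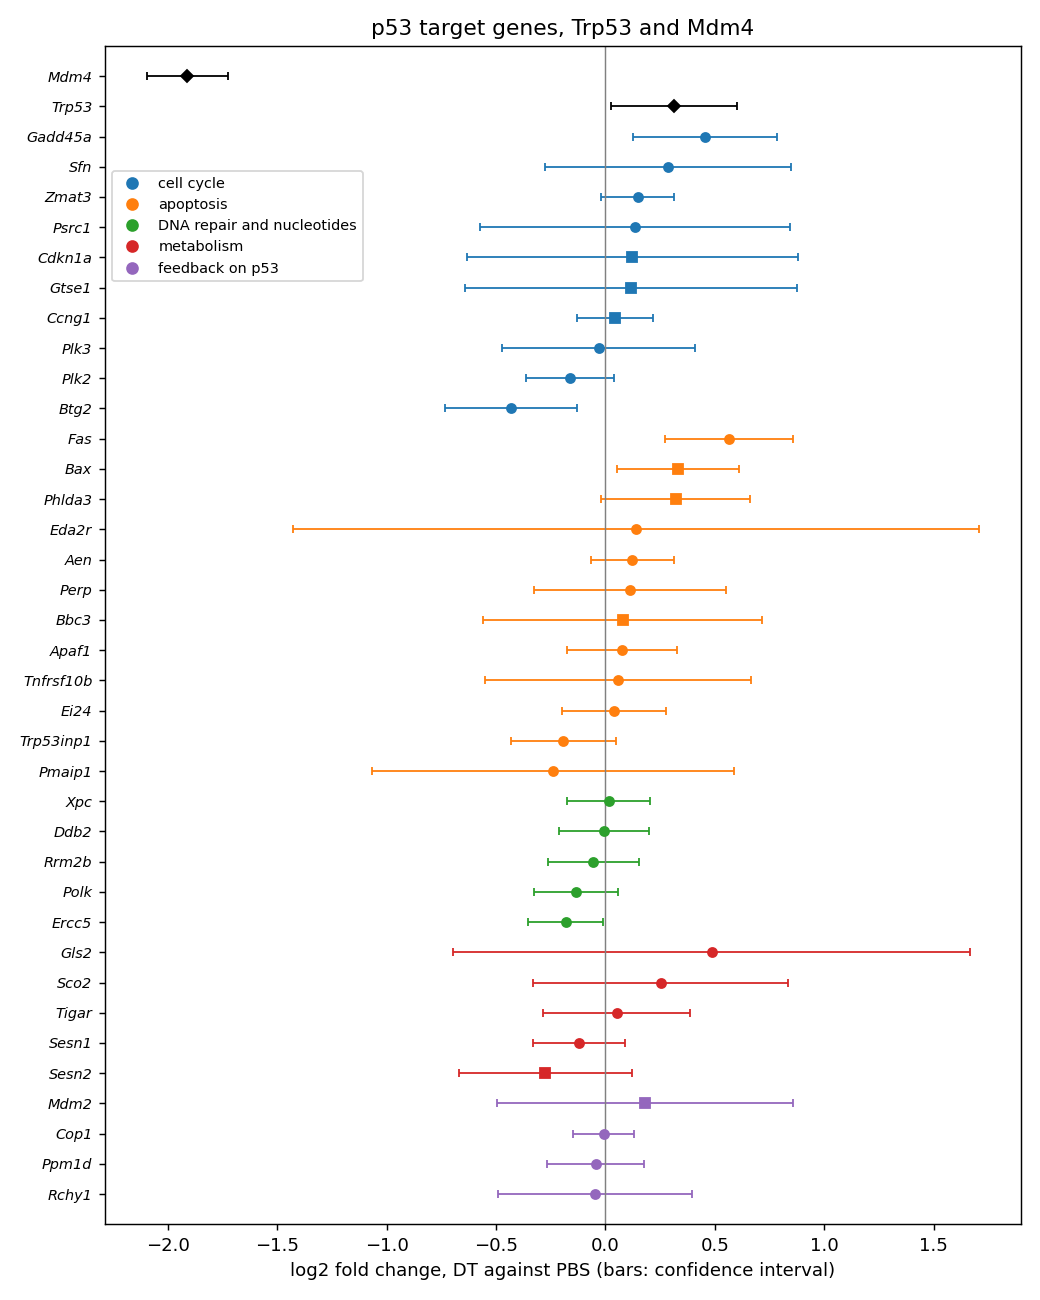
Log2 fold change of DT against PBS with its 95% interval for 36 of the tested p53 targets, coloured by role, with squares for genes among the 10 and black diamonds for *Trp53* and *Mdm4*. The targets drawn lie from -0.43 (*Btg2*) to 0.56 (*Fas*), none was called by limma, and *Mdm4* stands apart at -1.91. The interval drawn for *Mdm4*, which was chosen for its fall, is not a test of that fall.

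By role, 7 of 10 cell cycle targets, 10 of 12 apoptosis targets, 1 of 5 repair targets, 3 of 5 metabolism targets and 1 of 4 feedback targets were fitted higher. Their medians were 0.12, 0.09, -0.05, 0.05 and -0.03 on the log2 scale. *Fas* and *Gls2* were among the highest values outside the 10 genes. *Fas*, a death receptor that NF-kappa B also drives, was at 11.0, 9.32 and 12.1 CPM after PBS and at 16.2, 15.0 and 16.6 CPM after DT, with no overlap. Its log2 fold change was 0.56 (SE 0.13, adjusted p = 0.132 from limma), and it was the target that DESeq2 called, at 0.57 (adjusted p = 0.0177). *Gls2*, a glutaminase, was fitted at 0.49 (adjusted p = 0.793) at under 1 CPM on average.

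The lowest values were those of *Btg2*, *Pmaip1* and *Trp53inp1*. *Btg2*, an antiproliferative gene that is also an immediate early gene, was at 58.1, 56.7 and 80.7 CPM after PBS and at 45.3, 47.0 and 50.8 CPM after DT. Every DT library of *Btg2* lay below every PBS library, with a log2 fold change of -0.43 (SE 0.13, adjusted p = 0.301 from limma). *Pmaip1*, which encodes Noxa, had -0.24 (adjusted p = 0.865) and *Trp53inp1* -0.19 (adjusted p = 0.580). Targets of the same role thus lay on both sides of 0, *Fas* and *Pmaip1* among the apoptosis genes and *Gadd45a* (0.46) and *Btg2* among those of the cell cycle.

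The genes that act on p53 were listed next, 20 kinases, deubiquitinases, acetyltransferases, ligases, ribosomal proteins and relatives of p53, with the 4 splicing genes above. Of these 24, 23 were tested and *Cdkn2a*, which encodes the Mdm2 inhibitor p19Arf, had no read in any library. None was called by limma, edgeR or DESeq2, which called 0.713%, 0.733% and 2.15% of all genes in that order. Of the 23, 12 were fitted higher and 11 lower, and the median was 0.00 on the log2 scale. At an unadjusted p under 0.05 there were 2, both higher, 8.70% of the genes tested from this list beside 10.4% of all genes. The checkpoint kinase *Chek2* was at 4.42, 4.40 and 5.28 CPM after PBS and at 6.20, 5.65 and 8.33 CPM after DT, a difference of 0.49 on the log2 scale (adjusted p = 0.424 from limma). The deubiquitinase *Usp10*, which spares p53, had 0.24 (adjusted p = 0.368). The DNA damage kinases *Atm* and *Atr* had -0.10 and -0.04, and the relatives *Trp63* and *Trp73* 0.07 and 0.06.

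Genes of the dividing cell are lowered through p53 and p21, and 20 of them were listed as the other side of a p53 output. Of 19 tested, with *Cdc25c* under the filter, 18 were fitted higher after DT and 1 lower, with a median of 0.44. The summed levels of the border macrophage markers and of the ependymal markers were also higher in every DT library. The part of these or other cells in the values of this list was not tested. None of the 19 cell cycle genes was called by limma, edgeR or DESeq2, which called 0.713%, 0.733% and 2.15% of all genes in that order. At an unadjusted p under 0.05, 7 were higher and 0 lower, 36.8% of the list beside 10.4% of all genes. The groups did not overlap for 9 of the 19, all higher, beside 8.75% of all genes in that direction. The proliferation antigen *Mki67* was at 25.5, 23.1 and 33.0 CPM after PBS and at 35.5, 38.2 and 37.9 CPM after DT, a difference of 0.47 on the log2 scale (adjusted p = 0.240 from limma). It was called without PBS replicate 3, at 0.61 (adjusted p = 0.0465, with up to 1 call from this list over the 15 alternatives). The topoisomerase *Top2a* had 0.44 (adjusted p = 0.349), the kinesin *Kif23* 0.88 (adjusted p = 0.257) and the helicase subunit *Mcm5* 0.61 (adjusted p = 0.354). Most of these genes were read little, with a median of 2.01 CPM.

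**Figure D5:**
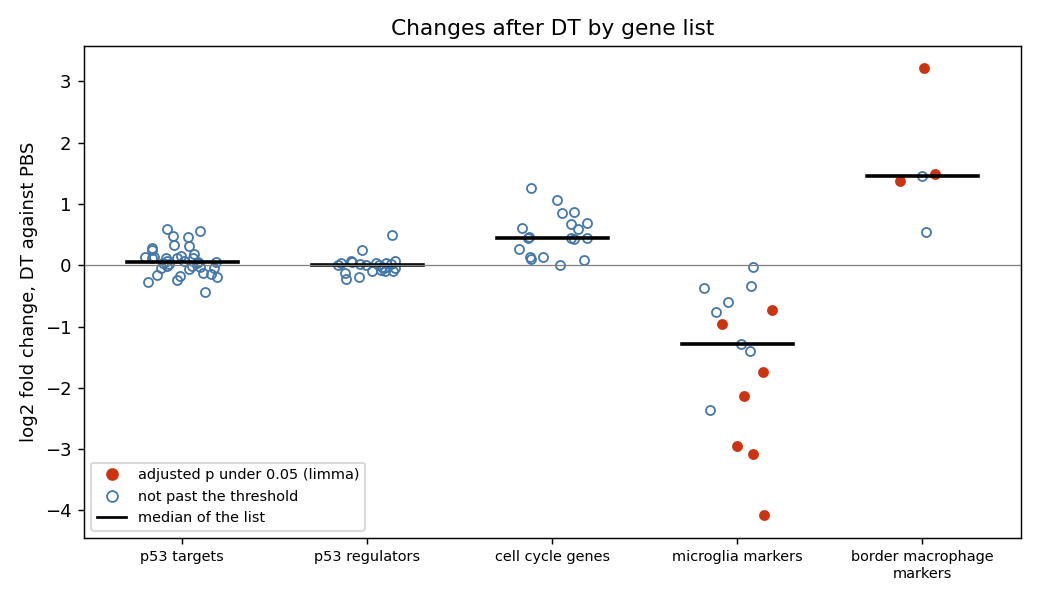
Log2 fold changes of DT against PBS for the tested genes of 5 lists, with filled red points for genes called by limma, open blue points for the others and a black line at the median of each list. The 37 p53 targets and 23 regulators centre near 0 with 0 called, 18 of 19 cell cycle genes lie above 0 with 0 called, 7 of 15 microglia markers were called lower, and 3 of 5 border macrophage markers were called higher.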

How the data were processed

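The 6 libraries were made with a SMARTer stranded kit, from 3 independent experiments. As the study's methods and the submitters' processing notes state, the authors trimmed reads with Trim Galore 0.5.0, mapped them by strand to mm10 with HISAT2 2.1.0, removed ribosomal reads with bedtools 2.25.0, quantified genes with StringTie 1.3.5 and compared groups with edgeR 3.24.3. The authors deposited CPM and TPM per gene. The deposited tables also hold a p-value, a q-value and a log2 fold change for each gene from the comparison the authors made, none of which were used. The design had assumed plain CPM, but the deposited signal is CPM on library sizes scaled by factors of 0.974 to 1.02. Whole reads could be recovered for 100% of values (tolerance 0.05 reads). Dates stood in place of 27 gene names in the files as deposited.

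From the deposited CPM, log2(CPM + 0.1) of genes with a mean of at least 0.5 CPM was fitted in limma 3.58.1 (R 4.3.3) without covariates and with the variance following the level. The tests were checked on simulated data with large changes and the same dispersion for every gene. That check does not cover changes as small as those fitted for the genes other than *Mdm4*, or a spread like that of *Mdm2*. The 10 genes and all lists were chosen with earlier results of these data known, so no count over them is independent support. Named are the 10 genes, list members past the threshold, the 3 highest and 3 lowest targets, the 5 profiles nearest to *Mdm4* and its 5 neighbours on each side. Other names (list members at an unadjusted p under 0.05 or of known role, and the profiles nearest to *Mdm2* and *Cdkn1a*) were chosen after their values were seen. Alternatives were a pseudocount of 1, no filter, at least 2 CPM, TPM in place of CPM, no variance trend, quantile normalization, fits that left out a library, a block for the replicate number, and edgeR 4.0.16 and DESeq2 1.42.0 on recovered reads. Gene coordinates are those of GENCODE M21 (GRCm38, the same build as mm10), and promoters those of RefSeq. The values of 1 gene in the list of targets, which is included in the counts, are not reported here.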

Additional observations from a re-analysis of the deposited data

How the results depend on the processing

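Of 314 values recomputed under 15 settings, 293 changed neither direction nor call or, for counts of genes, stayed within 1.5 times, and the cause of the changes was not tested unless fewer libraries or other genes in the fit made them. None of the 9 genes tested beside *Mdm4* was called under any setting. The counts of called genes were 5 higher and 1 lower with no filter, 35 and 11 without the variance trend, and 227 and 98 with DESeq2, which also called 1 p53 target, *Fas*. Leaving out 1 library at a time gave 39 to 72 higher and 9 to 20 lower genes. The median of the p53 targets then ran from -0.0163 to 0.0850, and 0 to 1 cell cycle genes were called. Values near 0 changed direction in these fits. *Cdkn1a* ran from -0.12 to 0.44 (-0.07 without DT replicate 3), *Mdm2* from -0.15 to 0.44, *Ccng1* from -0.0194 to 0.0883, *Bbc3* from -0.16 to 0.28 and *Gtse1* from -0.0419 to 0.31. *Gtse1* had no value at a minimum of 2 CPM. *Gtse1* was limited by its low counts.

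The replicate numbers are shared by the groups, but the labels do not say that a number marks an experiment, so a pairing was not established. The correlations of deviations between libraries of the same number were 0.115, 0.0105 and 0.118. Between libraries of different number they ran from -0.124 to 0.0115. With the replicate number as a block, 79 genes were higher and 30 lower, and the calls of the lists and of the 9 genes did not change.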

Other observations

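The genes below were picked from all genes tested as the nearest in profile, so their likeness follows from the choice. The profiles nearest to that of *Mdm2* over the 6 libraries were those of *Ap3s1* (root mean square difference 0.140 on the log2 scale), *Lcp2* (0.144), *Cpeb1* (0.166), *Ces5a* (0.178) and *Mroh8* (0.179). *Ap3s1*, an adaptor subunit of vesicle traffic, was at 18.9, 23.7 and 11.3 CPM after PBS and at 26.2, 11.5 and 21.2 CPM after DT. *Cpeb1*, a regulator of polyadenylation and translation, was at 14.7, 16.1 and 6.39 CPM after PBS and at 15.9, 7.96 and 12.3 CPM after DT.

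The profiles nearest to *Cdkn1a* were those of *Ccdc28a* (0.0868), *Bub1b* (0.0927), *Coa4* (0.103), *Myl9* (0.104) and *Cenpf* (0.106). *Bub1b* and *Cenpf* encode proteins of the mitotic spindle checkpoint and the kinetochore. *Cenpf* was at 11.1, 8.20 and 17.3 CPM after PBS and at 11.6, 13.3 and 16.5 CPM after DT.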
